A study of Mus musculus with 15 samples.

Results

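The genes described here encode the proteins of the 2 ribosomes of a mouse cell, measured by RNA-seq in the colon. Of 12897 genes listed in the deposited tables, 154 were selected by their symbols alone. The cytosolic class holds 78 genes with Rpl or Rps symbols and the acidic stalk genes Rplp0, Rplp1 and Rplp2. The mitochondrial class holds 76 genes with Mrpl or Mrps symbols. By symbol these are 46 large and 32 small subunit genes in the cytosolic class, and 47 large and 29 small in the mitochondrial class. All 154 were measured in all 15 colons. The tables had already been filtered on low counts, so genes lost to that filter cannot be seen here. Cytosolic ribosomal protein genes without an entry in the tables were not analysed here.
The distal colon of 15 mice was profiled, 3 in each of 5 groups, to ask how the colon changes without Irf1, an interferon-regulated transcription factor, before tumors form in mice given a carcinogen and a chemical colitis. All mice were C57BL/6 (B6), and the mutants carried Irf1-/- in the whole body, since no promoter or Cre driver restricts the allele. Treated mice were injected on day 1 with the carcinogen AOM, which the methods give as 7 mg/kg, drank 2% DSS, an agent that damages the epithelium, from day 8 to day 11, and were examined on day 26 (D26). The groups were untreated B6 control set 1, untreated B6 control set 2, untreated Irf1-/- mutants, B6 mice at D26 and Irf1-/- mutants at D26. The methods give the age of mice at injection as 8 to 10 weeks for the tumor protocol.

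A ribosome consists of a small subunit that reads the mRNA and a large subunit that joins amino acids. Cytosolic ribosomal proteins are needed in nearly equal amounts, and many of their mRNAs begin with a run of pyrimidines, the 5′ terminal oligopyrimidine (TOP) motif, through which growth signalling controls their translation. Mitochondrial ribosomal proteins are also encoded in the nucleus, but they are imported into mitochondria. The ribosomes they form there make core subunits of the respiratory chain. In the colon, ribosome production is highest in dividing crypt cells.

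Between 22266607 and 22869853 reads were counted per library, and the differences between mice far exceeded counting error. Counts of ribosomal protein genes lay between 180 and 39887 reads for a cytosolic gene and between 192 and 2233 for a mitochondrial one. Irf1 itself was counted at 79.4 to 123 CPM (read counts relative to the library total, scaled by TMM) in Irf1-/- mutants and 128 to 227 CPM in B6 mice. The tissue label was borne out by epithelial markers such as Epcam and Krt20, of which 8 of 8 were measured, at a summed 7496 to 9768 CPM, and by smooth muscle markers, 9 of 9. The counts of B6 D26 libraries tilted towards GC-rich genes, with slopes of 0.20, 0.14 and 0.29 log2 units per 10% GC content against -0.13 to 0.03 in the other 12 libraries. Xist was at 25.2 and 5.97 CPM in B6 D26 replicates 1 and 2 and at 11.6 CPM in Irf1-/- D26 replicate 1, and at 321 CPM or more in the other 12 libraries; its part in the results was not tested. Because RNA of whole tissue was measured, fewer cells of a type and less RNA per cell cannot be told apart.

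The start sites of the genes set the classes apart in sequence. In RefSeq promoters of build GRCm38.p6, a run of at least 8 pyrimidines (C or T on the coding strand) within 50 bases of the annotated start was present in 46 of the 58 cytosolic genes with an entry (79.3%). It was present in 23 of 67 mitochondrial genes (34.3%), a share close to the 32.4% of the 9624 genes in all 3 tables that had an entry and to the 35.7% of 27025 genes in the promoter table. The windows of 30 bases below show genes that the results turn on, with the pyrimidine run in capitals. Rps12, Rpl41 and Rpl13a are typical cytosolic genes, Rpl22 and Rpl22l1 are a pair of paralogues, and Mrpl9 and Mrps6 are mitochondrial genes that hold a run. Rpl7l1, a paralogue, and Mrpl27 hold none and are shown around the start site.
Rps12: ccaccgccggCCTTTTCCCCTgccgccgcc
Rpl41: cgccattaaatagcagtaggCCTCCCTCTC
Rpl13a: cgacaagaCCTCCTCCTTTCCCaggcggct
Rpl22: ccgtctgaCTCCTCCCTTTCCCgacagccg
Rpl22l1: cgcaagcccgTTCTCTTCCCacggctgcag
Rpl7l1: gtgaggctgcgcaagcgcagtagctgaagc
Mrpl9: atgcgcggggTCCTTCTTCCgcctgtccgc
Mrps6: accggccgtgTTCCTCTCTCgtcttcctct
Mrpl27: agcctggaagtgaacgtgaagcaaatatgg
These windows lie at chr10:23787182-23787211 (minus strand) for Rps12, chr10:128549119-128549148 (minus) for Rpl41 and chr7:45128722-45128751 (minus) for Rpl13a. Those of the paralogues are chr4:152325679-152325708 (plus) for Rpl22, chr3:28805499-28805528 (plus) for Rpl22l1 and chr17:46782642-46782671 (minus) for Rpl7l1. The mitochondrial ones are chr3:94443312-94443341 (plus) for Mrpl9, chr16:92058343-92058372 (plus) for Mrps6 and chr11:94653776-94653805 (plus) for Mrpl27. A start site was taken as the first that RefSeq lists for a gene, so a run further away is not counted, and a run is a description of the letters and not evidence of a TOP mRNA. The motif CCGGAAG, the core recognised by ETS factors such as GABPA, was searched on either strand of the 250 bases before the start. It was found in 31.0% of cytosolic and 23.9% of mitochondrial genes, and in 13.8% of the genes in all 3 tables.

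The classes differed in abundance. The median cytosolic gene stood at 429 CPM, or 576 CPM per kb of transcript, and the median mitochondrial gene at 26.6 CPM, or 17.6 CPM per kb, which is near the 12.5 CPM per kb of the median gene. Per length the most abundant cytosolic genes were Rplp1 (1359 CPM per kb) and Rplp0 (1049) of the ribosomal stalk, which recruits translation factors, the small subunit gene Rps12 (1332), Rpl41 (1144), which encodes one of the shortest ribosomal proteins, and Rpl9 (1050). The least abundant were Rps4y2 (13.3 CPM per kb), a relative of Rps4x that current annotation calls Rps4l, and Rpl7l1 (44.8). Among mitochondrial genes Mrpl27 led (103 CPM per kb), followed by Mrps21 (90.4), Mrpl52 (76.4), Mrpl33 (57.3) and Mrpl42 (55.3), and Mrpl47 (3.63) and Mrps25 (4.01) were lowest. A level per length depends on the transcript chosen, and long models lower the value of Mrpl47 and Mrps25. The authors' treatment of reads that match several places was not given in the sources used here, so counts of cytosolic genes, most of which have processed pseudogenes, are uncertain to that extent.
Both classes were among the steadier genes of the colon. The SD of log2 CPM over the 15 libraries had a median of 0.11 in the cytosolic class and 0.12 in the mitochondrial class, against 0.17 over the 12370 genes in all 3 tables. It was below the median of all genes for 77 of 78 cytosolic and 68 of 76 mitochondrial genes. The widest spreads were those of Rps4y2 (0.28), Rpl22l1 (0.16) and Rps19 (0.15) among cytosolic genes and of Mrps22 (0.24), Mrps6 (0.22) and Mrps34 (0.22) among mitochondrial ones.

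The cytosolic genes took 3.69, 4.10 and 3.65% of all counts in control set 1, 3.23, 3.85 and 3.66% in control set 2, and 3.54, 3.72 and 3.75% in untreated Irf1-/- mutants. At D26 they took 4.35, 3.61 and 3.78% in B6 mice and 3.54, 3.61 and 3.57% in Irf1-/- mutants. The lowest and the highest library were a mouse of control set 2 and a B6 D26 mouse, and mice of 1 group differed by as much as the group averages did. The range of treated mutants lay below those of control set 1 and of B6 D26 mice, in the latter case meeting it at 3.61%, and all other pairs of groups overlapped. The mitochondrial genes took 0.216, 0.219 and 0.224% in control set 1, 0.215, 0.229 and 0.229% in control set 2, and 0.220, 0.231 and 0.229% in untreated Irf1-/- mutants. At D26 they took 0.220, 0.217 and 0.213% in B6 mice and 0.213, 0.204 and 0.208% in Irf1-/- mutants. The highest library exceeded the lowest by 1.34 times for the cytosolic class and by 1.13 times for the mitochondrial class, and all treated mutants lay below all untreated mice in the latter.
In some libraries nearly all cytosolic genes deviated in the same direction. In B6 D26 replicate 1 the median cytosolic gene was 0.23 log2 units above its own mean over the libraries, with 73 of 78 genes above it. In control set 1 replicate 2 it was 0.14 above, with 76 of 78 genes above. In control set 2 replicate 1 it was -0.19, with 2 of 78 genes above. In the other 12 libraries 9 to 60 genes were above. These 3 libraries stand apart from the others of their groups. Each group comparison of the cytosolic class below contains at least 1 of them, except that of treated with untreated mutants. That comparison also holds a library apart from its group: untreated Irf1-/- replicate 1 had 9 of 78 genes above, against 44 and 45 in replicates 2 and 3. Mitochondrial genes did not follow: in the 3 libraries named first their medians were 0.02, -0.00 and -0.03, with 44, 37 and 28 of 76 genes above their own mean.

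**Figure D1:**
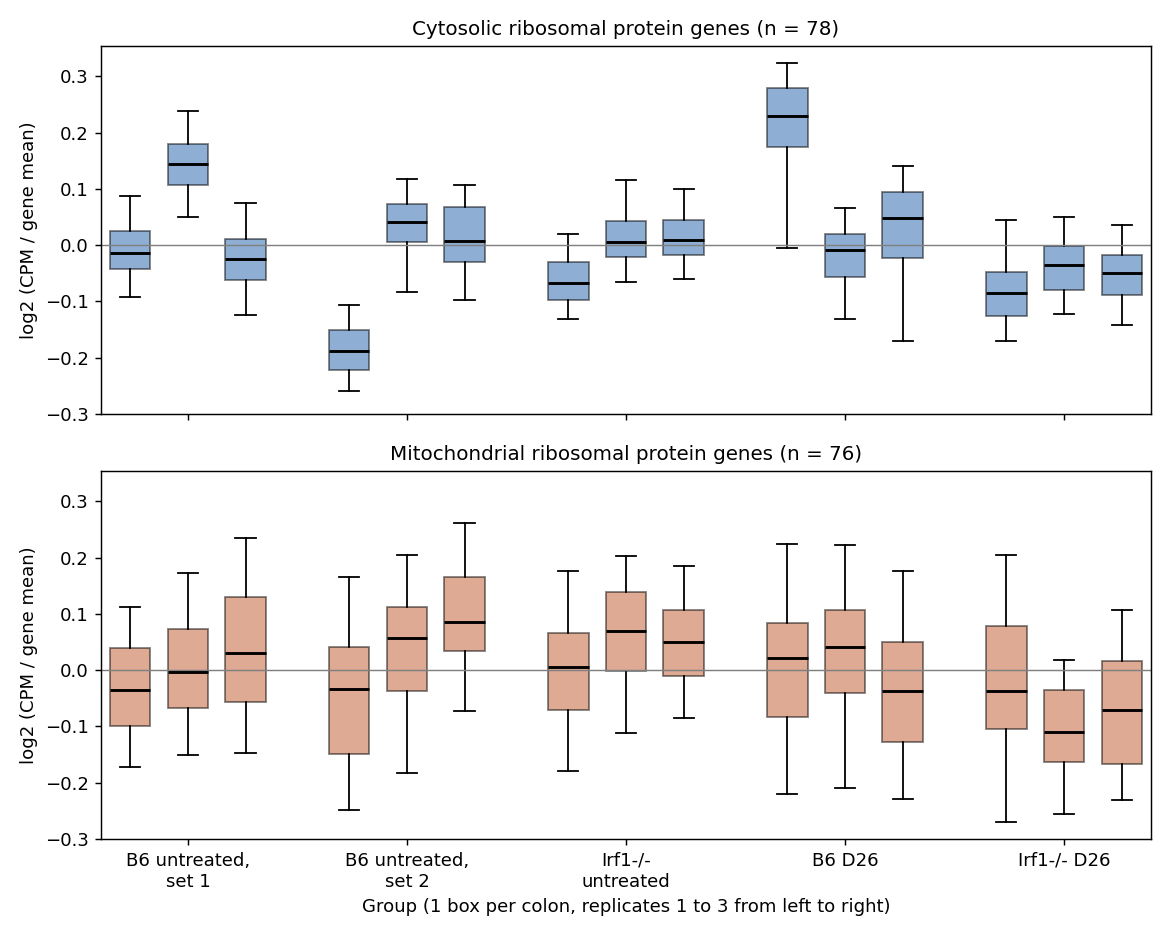
Deviation of each ribosomal protein gene from its own mean over the 15 colons, in log2 units, for 78 cytosolic (top) and 76 mitochondrial genes (bottom). Each box is 1 colon, with the median, the quartiles and whiskers from the 5th to the 95th percentile of genes; the cytosolic medians run from -0.19 to 0.23 and shift within groups, while the 3 mitochondrial medians of treated Irf1-/- mutants are -0.04, -0.11 and -0.07.

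Over the 15 libraries the median Pearson correlation between a pair of cytosolic genes was 0.74, against 0.16 for a pair of mitochondrial genes, 0.14 for a pair with 1 gene of each class and -0.00 for a pair drawn from all genes. With the group means removed these values were 0.87, 0.14, 0.17 and 0.00, and after correction for GC content they were 0.70, 0.17, 0.12 and -0.00. They are descriptions: the points of a pair share a library, its scaling and the mixture of cells in that colon.
The cytosolic genes that left this common pattern were the paralogues. The correlation of a gene with the median profile of the rest of its class had a median of 0.88 over the cytosolic genes. The 5 lowest values belonged to Rpl7l1 (-0.26), Rpl22l1 (-0.11), Rps4y2 (0.02), Rpl36al (0.09) and Rps27l (0.36), which are the 5 genes listed as paralogues of another cytosolic ribosomal protein gene. Each of the other 73 cytosolic genes had a correlation of at least 0.55, up to 0.99 for Rps18. The median was 0.37 among mitochondrial genes, from -0.33 for Mrpl37 to 0.79 for Mrpl51, and 22 of 76 exceeded 0.5.

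**Figure D2:**
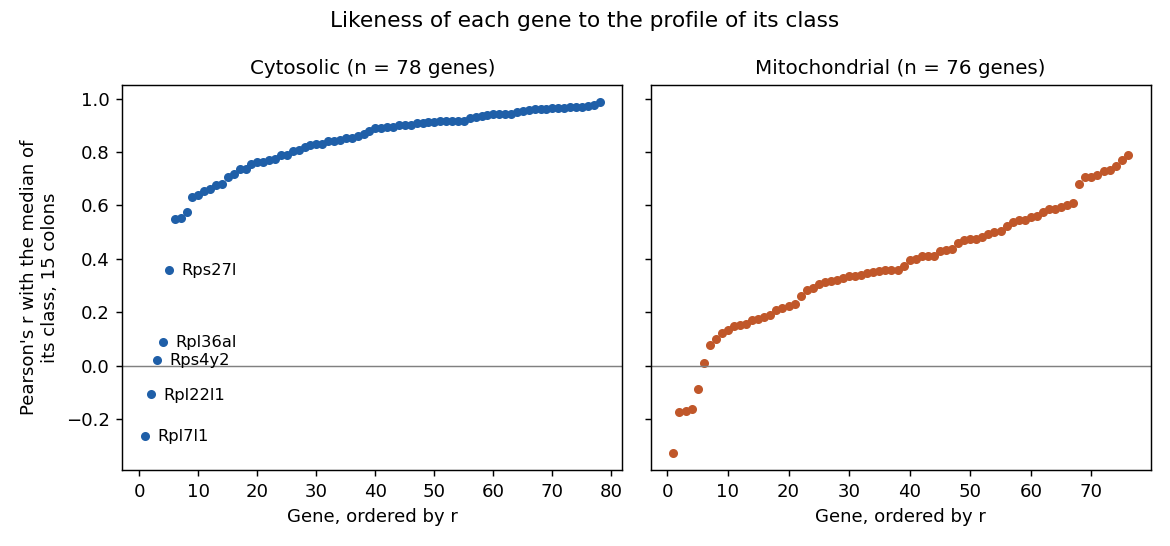
Pearson correlation of each gene with the median profile of the other genes of its class over 15 colons, with genes in ascending order on the x axis. The 5 cytosolic paralogues named in the plot lie between -0.26 and 0.36, below the other 73 cytosolic genes, and the mitochondrial genes form a continuum from -0.33 to 0.79.

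The paralogues stood at different levels relative to their partners. Rpl22l1, whose protein can take the place of Rpl22 in the large subunit, had 28.7% ± 2.78 (SD, n = 3) of the CPM of Rpl22 in control set 1 and 26.1% ± 4.88 in B6 D26 mice. It had 25.9% ± 1.28 in untreated and 33.1% ± 4.86 in treated Irf1-/- mutants, where the libraries were at 38.3, 32.2 and 28.7%. Rpl36al had 45.1% to 50.9% of Rpl36a as group means, Rpl7l1 had 13.7% to 15.5% of Rpl7, and Rps4y2 had 1.19% to 1.80% of Rps4x. Per length of transcript the group means were 22.2% to 28.4% for Rpl22l1 and 6.11% to 6.91% for Rpl7l1. Of the related mitochondrial genes Mrps18a, Mrps18b and Mrps18c, Mrps18a had 86.0% to 96.6% of the CPM of Mrps18b as group means and Mrps18c had 83.2% to 98.4%, or 105% to 118% and 141% to 166% per length.

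No ribosomal protein gene passed the study's double threshold (1.5-fold or more, adjusted p under 0.01) in any of 6 comparisons, by edgeR's quasi-likelihood test or by DESeq2. The cut-offs are the study's, but its own p-values were not used. For untreated genotypes and for both responses the study reports more genes past this threshold than either test passed here. That threshold was passed by 0.405% of all genes in untreated Irf1-/- mutants against control set 2, by 0.0644% between the control sets, by 0.0475% in the B6 response, by 0.252% in the Irf1-/- response, by 0.385% between treated genotypes and by 0.016% for the difference of the responses, all by edgeR. DESeq2 passed 0.85, 1.16, 3.49, 1.74, 2.16 and 0.601% of all genes in the same order. Only Rps4y2, in that difference, had a log2 FC beyond the 1.5-fold limit (-0.62). On simulated counts for the B6 response, 96 of 100 genes changed by 1 log2 unit were recovered at an adjusted p under 0.05. Of genes changed by 0.5, 30 of 100 were recovered. For the difference of responses these numbers were 72 and 15 of 100. The changed genes were drawn from all genes, which vary more than most ribosomal protein genes, so recovery for the latter was not measured. With 3 mice per group, small changes of single genes can be missed. Below, a gene is called at an adjusted p under 0.05 with any FC, and errors beside log2 FC are standard errors.

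**Figure D3:**
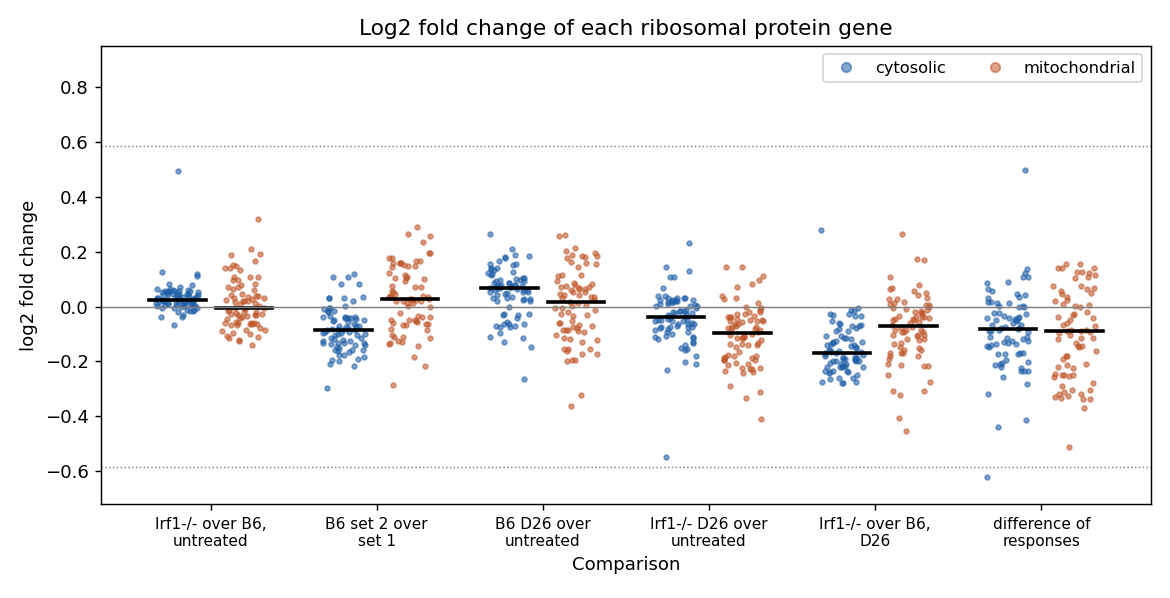
Log2 fold change of each cytosolic (blue) and mitochondrial (orange) ribosomal protein gene in the 6 comparisons, 1 point per gene, with the class median as a bar. Dotted lines mark a 1.5-fold change, and the cytosolic median between treated genotypes (-0.17) is the farthest from 0 of the 12 medians.

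In untreated Irf1-/- mutants against control set 2, which asks what loss of Irf1 does at steady state, the median log2 FC was 0.03 over cytosolic and -0.01 over mitochondrial genes (0.00 over all 12588 genes). Log2 FC was positive for 65 of 78 cytosolic and 37 of 76 mitochondrial genes, against 50.8% of all genes. Without control set 2 replicate 1 the cytosolic median was -0.04, with 15 of 78 positive. No member was called in this comparison by edgeR or DESeq2, where edgeR called 1.25% of all genes (0.437% higher and 0.81% lower), and by edgeR 1 cytosolic and 2 mitochondrial genes were higher at an unadjusted p under 0.05 (5.2% of all genes) and 0 were lower (5.23%). The libraries did not overlap and were higher in mutants for 1 cytosolic and 5 mitochondrial genes (7.88% of all genes), and were lower for 0 (7.58%). The largest value was that of Rps4y2, at 11.2, 8.93 and 8.13 CPM in control set 2 and 15.7, 10.3 and 13.8 CPM in the mutants (log2 FC 0.49 ± 0.18, adjusted p = 0.332). Its groups overlapped, and at a level this low Rps4y2 varied 1.96-fold over all libraries. Against control set 1, the cytosolic median was -0.06.
Between the control sets, both untreated B6, the median was -0.08 over cytosolic genes, with 11 of 78 positive, and 0.03 over mitochondrial genes, with 47 of 76 positive (49.2% of all genes were positive). No member was called by edgeR, against 0.572% of all genes (0.169% higher and 0.403% lower), with unadjusted p under 0.05 for 3 cytosolic and 1 mitochondrial gene lower in set 2 (8.08% of all genes) and for 7 mitochondrial genes higher (9.11%). The libraries of set 2 were all lower than those of set 1 for 16 cytosolic and 2 mitochondrial genes (11% of all genes) and all higher for 1 and 9 (10.3%). DESeq2 called Rpl23a alone, and 4.69% of all genes. Rpl23a, a large subunit gene, stood at 490, 558 and 499 CPM in set 1 and 398, 437 and 423 CPM in set 2, so every library of set 2 was lower (log2 FC -0.30 ± 0.08, adjusted p = 0.116 from edgeR). The cytosolic median was -0.04 without control set 1 replicate 2 (31 of 78 positive) and -0.02 without control set 2 replicate 1 (32 of 78 positive). Marker sums moved as well: 11 of 12 proliferation markers had a positive log2 FC (summed 1307 to 1445 CPM in set 2, 1011 to 1344 in set 1), and the 11 measured leukocyte markers were all negative (567 to 751 against 965 to 1249 CPM). Goblet cell markers were positive in 7 of 7 (20532 to 25929 against 10355 to 17083 CPM), with none called. Their part in the class shift was not tested.

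The response of B6 mice to AOM/DSS at D26, against control set 1, was a median log2 FC of 0.07 over cytosolic and 0.01 over mitochondrial genes (0.01 over all genes), with 58 of 78 and 41 of 76 positive, against 51.8% of all genes. No member was called by edgeR, although 8.46% of all genes were (3.95% higher and 4.52% lower). By edgeR, 1 cytosolic gene had an unadjusted p under 0.05 in each direction, and 2 mitochondrial genes did in each direction, against 14.7% of all genes higher and 14.8% lower. The libraries did not overlap for 3 cytosolic and 9 mitochondrial genes higher at D26 (16.3% of all genes) and for 2 and 5 lower (18.3%). DESeq2 called Rpl41 and Mrps6, and 14.3% of all genes. The cytosolic median was -0.01 without B6 D26 replicate 1 (32 of 78 positive), 0.12 without control set 1 replicate 2, 0.00 with a correction for GC content (44 positive) and 0.15 against control set 2 (69 positive). Goblet cell markers were positive in 7 of 7, with 5 called higher and summed levels of 27450 to 35245 CPM against 10355 to 17083 CPM. Untreated control set 2 lay between these ranges, at 20532 to 25929 CPM. Epithelial markers were positive in 7 of 8, proliferation markers in 10 of 12 and leukocyte markers in 10 of 12. No proliferation or leukocyte marker was called, and their summed levels overlapped between the groups. Proliferation markers summed to 912 to 1394 CPM at D26 against 1011 to 1344 CPM, and leukocyte markers to 925 to 1749 against 965 to 1249 CPM. Their part in the class values was not tested.
Mrps6, a small subunit gene of the mitochondrial ribosome, was lowest by p. It stood at 26.7, 29.1 and 26.8 CPM in control set 1 and 20.9, 19.9 and 23.0 CPM in B6 D26 mice, with no overlap (log2 FC -0.36 ± 0.10, adjusted p = 0.0546). In control set 2 it was at 27.2, 23.1 and 30.8 CPM, where the lowest library was level with the highest at D26. Mrpl1, a large subunit gene, was at 30.9, 29.3 and 32.5 CPM before and 26.0, 24.9 and 22.7 CPM at D26 (-0.32 ± 0.09, adjusted p = 0.0619), again with no overlap. Rpl22l1 was at 73.0, 72.8 and 76.0 CPM before and 59.7, 67.5 and 56.5 CPM at D26 (-0.26 ± 0.08, adjusted p = 0.083), opposite to most of its class. Rpl41 was at 576, 587 and 564 CPM before and 766, 649 and 650 CPM at D26 (0.27 ± 0.09, adjusted p = 0.103), so all treated libraries were higher.
Within both classes the log2 FC of the B6 response followed the GC content of the transcript. Spearman's rho across genes was 0.68 for 78 cytosolic, 0.61 for 76 mitochondrial and 0.60 for 12541 genes in all, while in the Irf1-/- response it was -0.09, 0.09 and 0.14. Genes are not independent replicates, and these values share the libraries of the comparison. Rpl22l1 (40.6% GC) and Mrpl1 (41.4%) are among the members with the lowest GC content, and after correction for GC content Rpl22l1 had a log2 FC of 0.04 and Mrpl1 one of -0.05. All 3 B6 D26 libraries carry the tilt, so treatment and library preparation cannot be told apart for these members. Mrps6 (53.9% GC) kept a log2 FC of at most -0.31 under every alternative run.

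**Figure D4:**
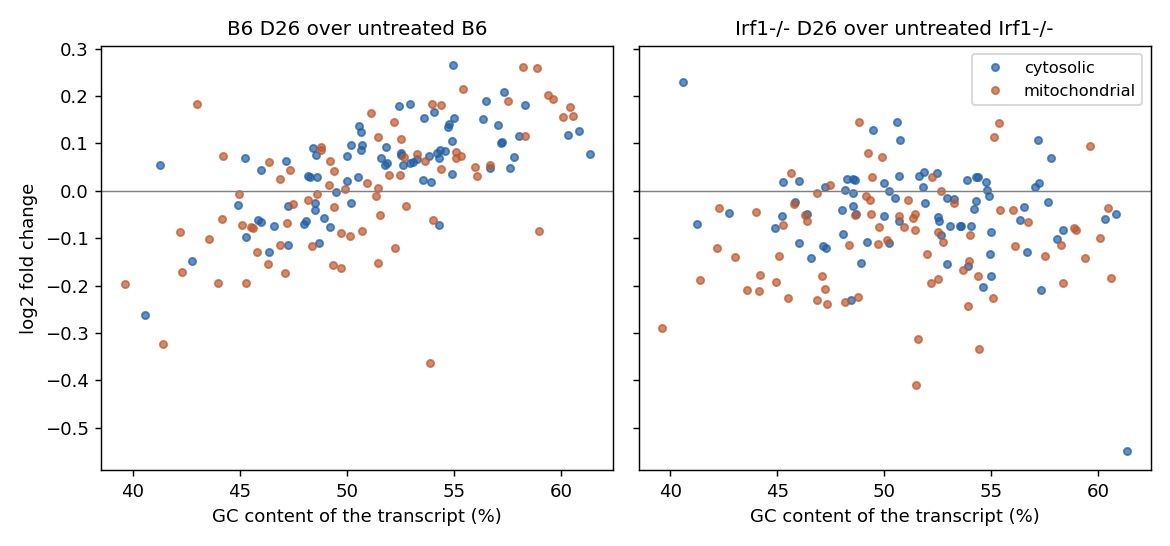
Log2 fold change at D26 over untreated mice against the GC content of the transcript (%), for cytosolic (blue) and mitochondrial (orange) genes, in B6 mice (left, control set 1) and Irf1-/- mutants (right). The points rise from left to right in B6 mice (rho 0.68 and 0.61) and not in mutants (-0.09 and 0.09).

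The response of Irf1-/- mutants to AOM/DSS was a median log2 FC of -0.10 over mitochondrial and -0.04 over cytosolic genes (0.01 over all 12692 genes). Log2 FC was negative for 66 of 76 mitochondrial and 51 of 78 cytosolic genes, against 48.2% of all genes. Mrpl27 was the only member called by edgeR, lower at D26, where 2.37% of all genes were called and 0.875% were called lower. DESeq2 called Mrpl27, Mrpl9, Rps3, Rplp1 and Rps9, all lower, and 6.36% of all genes. At an unadjusted p under 0.05 and lower there were 15 mitochondrial genes (19.7%) and 8 cytosolic genes (10.3%), against 8.47% of all genes, and 2 cytosolic genes were higher, against 10.1%. The libraries did not overlap and were lower at D26 for 24 mitochondrial (31.6%) and 17 cytosolic genes (21.8%), against 13% of all genes, and higher for 1 and 4, against 11.8%. Leukocyte markers moved in these mice, with 11 of 12 positive and 5 called higher, and their part in this was not tested. The mitochondrial median was -0.12 to -0.07 when each mouse was left out in turn and -0.06 with a correction for transcript length, which moved the cytosolic median to 0.04. Both subunits took part, with 41 of 47 large and 25 of 29 small subunit genes negative.
Mrpl27, of the large subunit, stood at 91.8, 86.8 and 87.2 CPM in untreated and 59.8, 73.6 and 66.3 CPM in treated mutants, and every treated library was lower (log2 FC -0.41 ± 0.08, edgeR adjusted p = 0.0399). The call was lost in 4 of 6 fits that each left out a mouse and under the length correction, with the log2 FC between -0.49 and -0.33 over all alternatives. In B6 mice, Mrpl27 was at 79.5, 70.8 and 76.3 CPM in control set 1, 100, 85.1 and 86.7 CPM in control set 2 and 71.0, 65.6 and 65.9 CPM at D26. The B6 log2 FC was therefore -0.15 against set 1 (adjusted p = 0.228) and -0.41 against set 2 (adjusted p = 0.0232), and the difference between the genotypes' responses was -0.25 ± 0.11 (adjusted p = 0.276) with set 1 and 0.01 with set 2. The treated genotypes stood at 66.6 ± 6.87 CPM in mutants and 67.5 ± 3.01 CPM in B6 mice (SD, n = 3 each; log2 FC -0.04, adjusted p = 0.842).
Mrpl9, also of the large subunit, was at 87.9, 95.8 and 86.5 CPM in untreated and 68.8, 74.8 and 73.6 CPM in treated mutants, with no overlap (-0.31 ± 0.07, adjusted p = 0.0514). Mrpl10 was at 62.5, 63.6 and 63.1 CPM before and 55.7, 55.8 and 54.6 CPM at D26, also without overlap (-0.19 ± 0.06, adjusted p = 0.12). Among cytosolic genes the smallest p belonged to Rps3, which lies at the mRNA entry of the small subunit and also has a role in DNA repair, at 689, 751 and 743 CPM before and 621, 608 and 626 CPM at D26 (-0.23 ± 0.07, adjusted p = 0.115). Rplp1 was at 701, 732 and 704 CPM before and 610, 624 and 612 CPM at D26 (-0.21 ± 0.06, adjusted p = 0.124), and both genes had no overlap between the groups. The low-count paralogue Rps4y2 was at 15.7, 10.3 and 13.8 CPM before and 9.13, 8.01 and 9.99 CPM at D26, with the nearest libraries almost level (-0.55 ± 0.17, adjusted p = 0.127). Rpl22l1 had the smallest p among cytosolic genes above 0, at 60.6, 69.1 and 63.0 CPM before and 83.2, 77.3 and 64.9 CPM at D26, where the lowest treated library fell within the untreated range (0.23 ± 0.10, adjusted p = 0.251).

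**Figure D5:**
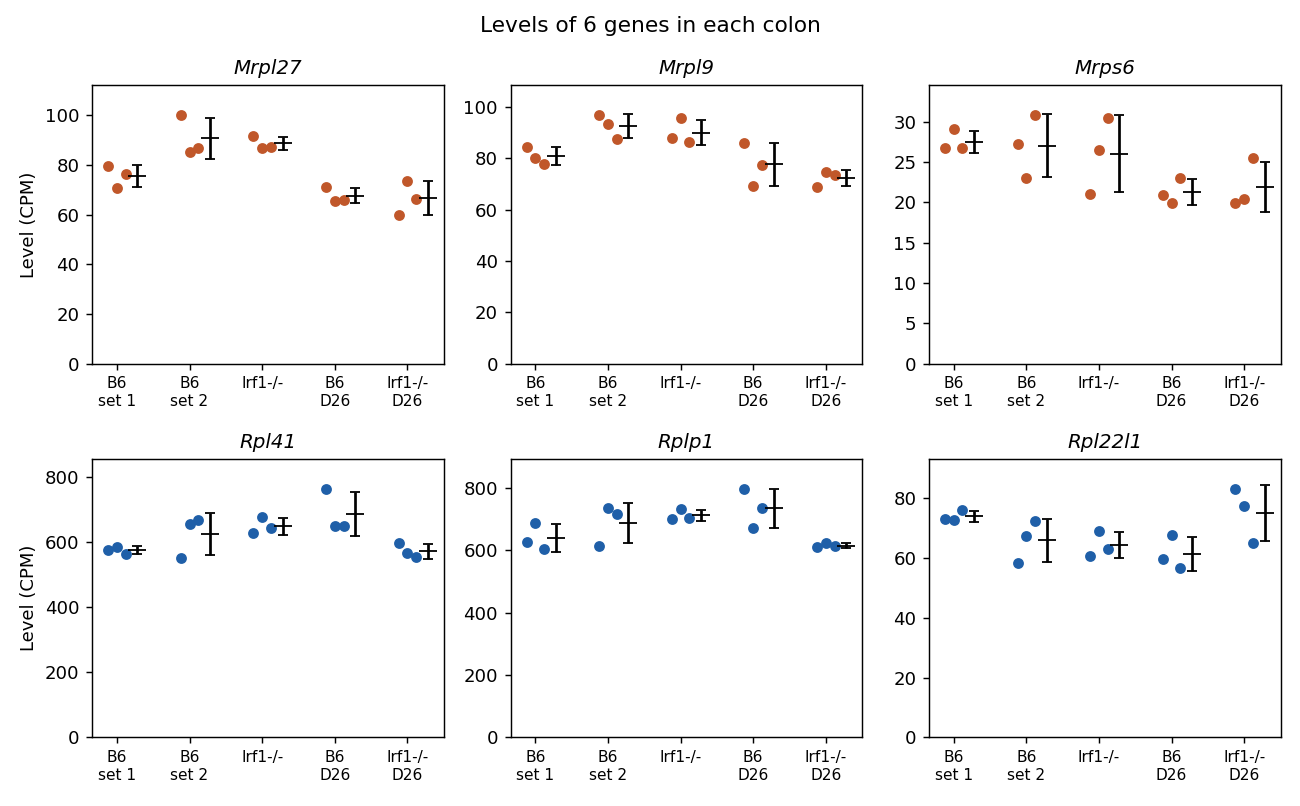
Levels in CPM of 3 mitochondrial (orange) and 3 cytosolic (blue) genes, 1 point per colon with the mean and SD of 3 mice beside them, on axes that start at 0. Mrpl27 lies between 59.8 and 73.6 CPM in both treated groups and between 70.8 and 100 CPM in the untreated ones, and Rpl22l1 is highest in an Irf1-/- D26 colon (83.2 CPM).

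Between treated genotypes, Irf1-/- against B6 mice at D26, the median was -0.17 over cytosolic and -0.07 over mitochondrial genes (-0.01 over all 12483 genes). Log2 FC was negative for 77 of 78 cytosolic genes, the exception being Rpl22l1, and for 58 of 76 mitochondrial genes, against 51.5% of all genes. No member was called by edgeR or DESeq2, against 2.05% of all genes by edgeR (0.937% higher and 1.11% lower). By edgeR, 11 cytosolic (14.1%) and 7 mitochondrial genes (9.21%) were lower at an unadjusted p under 0.05, against 10.6% of all genes, and 1 of each class was higher, against 11.4%. The libraries did not overlap and were lower in mutants for 36 cytosolic (46.2%) and 15 mitochondrial genes (19.7%), against 13.1% of all genes, and higher for 0 and 1, against 14.6%. Cytosolic genes move together from mouse to mouse, so these genes are not independent observations. Without B6 D26 replicate 1 the cytosolic median was -0.08, with 15 of 78 genes positive, and with the GC and length corrections it was -0.10 and -0.07.
Rpl13a, a large subunit gene, had the smallest p, at 826, 703 and 705 CPM in B6 D26 mice and 608, 626 and 627 CPM in mutants (log2 FC -0.28 ± 0.10, adjusted p = 0.158). Rplp1 was at 798, 672 and 734 CPM in B6 mice and 610, 624 and 612 CPM in mutants (-0.27 ± 0.10, adjusted p = 0.163). In both genes every mutant library was lower, and the 3 mutants lay closer together than the 3 B6 mice. Of mitochondrial genes, Mrpl2 was at 36.4, 35.8 and 31.6 CPM in B6 and 29.4, 27.6 and 27.9 CPM in mutant colons (-0.31 ± 0.10, adjusted p = 0.117), Mrpl28 had a log2 FC of -0.31 ± 0.10 (adjusted p = 0.119) and Mrpl14 one of -0.45 ± 0.16 (adjusted p = 0.149). Their transcripts have a GC content of 57.5, 58.2 and 59.4%, at the side to which the B6 D26 libraries tilt. Epithelial markers moved in the same direction, with 8 of 8 negative and summed levels of 7496 to 8503 CPM in mutants and 9290 to 9768 CPM in B6 mice; the part of this in the ribosomal protein genes was not tested. Proliferation markers, 5 of 12 positive, overlapped (1104 to 1354 and 912 to 1394 CPM).

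The difference between the responses of Irf1-/- mutants and B6 mice was tested in 1 model. Its median was -0.08 over cytosolic and -0.09 over mitochondrial genes (0.01 over all genes), with 19 of 78 and 24 of 76 positive, against 51.9% of all genes. No member was called by edgeR, as were 0.0481% of all genes. At an unadjusted p under 0.05, edgeR found 1 cytosolic gene above 0, 5 cytosolic and 12 mitochondrial genes (15.8%) below, against 9.65% of all genes above and 7.23% below. DESeq2 called Rpl22l1, Rpl41 and Rplp1, and 3.22% of all genes. Rpl41 had a difference of -0.44 ± 0.11 (adjusted p = 0.102), Rplp1 of -0.41 ± 0.11 (adjusted p = 0.112) and Rpl22l1 of 0.50 ± 0.13 (adjusted p = 0.112). Among mitochondrial genes Mrps28 had the smallest p (-0.51 ± 0.15, adjusted p = 0.129), at 17.0, 14.8 and 14.9 CPM in untreated and 11.99, 13.3 and 11.7 CPM in treated mutants, and at 14.0, 12.4 and 12.02 CPM in control set 1 and 15.2, 14.2 and 14.0 CPM in B6 D26 mice. The cytosolic median was 0.04 with the length correction and -0.17 with control set 2, and it lay between -0.14 and -0.00 when each mouse was left out.

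Genes that work beside ribosomal proteins were counted from lists written by hand. Of 82 measured ribosome biogenesis genes, which transcribe and process rRNA and assemble subunits, 60 had a negative log2 FC in the B6 response, with a median of -0.14, and 1 was called higher and 4 lower, against 48.2% of all genes negative, 3.95% called higher and 4.52% called lower. The called genes included Nhp2 of the H/ACA particle (0.48 ± 0.11, adjusted p = 0.0343), Taf1d of transcription by RNA polymerase I (-0.50 ± 0.11, adjusted p = 0.0336) and the kinase Riok2 of small subunit maturation (-0.44 ± 0.11, adjusted p = 0.0397). Against control set 2 none of these 3 was called (adjusted p = 0.134, 0.0611 and 0.0735 for Nhp2, Taf1d and Riok2). With the GC correction the median was -0.09, 65 were negative and none was called by edgeR, against 1.01% of all genes. In the Irf1-/- response the median of this list was 0.02 with 50 positive, between treated genotypes 0.09 with 60 positive, and between untreated genotypes -0.01 with 37 positive.
Of 52 cytosolic translation factors, 2 were called lower in B6 D26 mice, around a list median of 0.01, against 4.52% of all genes called lower. They were the initiation factor genes Eif2s2 (-0.61 ± 0.10, adjusted p = 0.0194) and Eif5 (-0.54 ± 0.10, adjusted p = 0.0231). Against control set 2 the log2 FC of Eif5 was -0.40 (adjusted p = 0.0351) and that of Eif2s2 0.05 (adjusted p = 0.804), and Eif2s2 was itself lower in set 2 than in set 1 (-0.66 ± 0.11, adjusted p = 0.0371). Between treated genotypes Eif5 was called higher in mutants (0.63 ± 0.10, adjusted p = 0.0211). With the GC correction edgeR called no gene of this list in the B6 response or between treated genotypes, against 1.01 and 0.777% of all genes. Of 49 genes of mitochondrial translation and ribosome assembly, 38 had a negative log2 FC in the Irf1-/- response (median -0.08), against 48.2% of all genes, and none was called by edgeR. Mtfmt, which formylates the initiator tRNA, was the 1 gene lower at an unadjusted p under 0.05 (-0.35 ± 0.08, adjusted p = 0.0526), against 8.47% of all genes. From this list 1 gene was called lower by DESeq2 and 1 with the GC correction, where 6.36 and 2.47% of all genes were called. Of 11 genes of ribosomal proteins or ribosome-bound factors that the symbol rule did not take, Mrp63 and the membrane insertase Oxa1l among them, 8 were negative in that response and 10 between treated genotypes, where Fau of the cytosolic ribosome had a log2 FC of -0.28 ± 0.10 (adjusted p = 0.169). Myc, a growth regulator of ribosome genes, stood at 12.4 to 19.3 CPM in treated and 11.1 to 13.0 CPM in untreated mutants (log2 FC 0.34 ± 0.17, adjusted p = 0.317).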

How the data were processed

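Total RNA of distal colon was depleted of rRNA, made into stranded libraries and sequenced as 50 bp pairs. The authors deposited raw read counts per gene, without normalization, in 3 tables, and genes under 5 CPM in at least 3 libraries of a table had been left out. The submitters' processing notes name TopHat2 2.0.9, Bowtie 1.0.0, featureCounts, edgeR and mm9, without their settings. The 54 columns of the authors' CPM, log CPM, fold changes, dispersions and p-values were not used.
Counts were scaled with TMM, and groups were compared with edgeR 4.0.16 (R 4.3.3), using its quasi-likelihood test with Benjamini-Hochberg adjustment over all genes of a comparison, fitted on its own groups and on 4 groups for the difference of responses. Counts on untreated Irf1-/- mutants are identical in 2 tables and were used once. Deviations of a class are medians over its genes of log2 CPM minus the gene's mean. GC content and length came from 1 transcript per gene of GENCODE M21, and promoters from RefSeq. The fits were tested on simulated counts.
The members and lists were chosen with earlier results of these data known. Genes named were those called, up to 3 with the smallest p per class, comparison and direction, those highest and lowest per length or most variable, paralogues, up to 3 per list by p, Irf1 and Myc; Mrpl41, the DESeq2 calls and Mrpl27 outside the Irf1-/- response were named after their values were seen. Alternatives were RLE size factors, library totals, DESeq2 1.42.0, a joint fit of all 15 libraries, blocking on replicate number, corrections by lowess on GC content or length, a 10 CPM filter, the other control set and each mouse left out. Python 3.11.15, numpy 2.4.6, pandas 2.3.3 and matplotlib 3.10.9 were used.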

Additional observations from a re-analysis of the deposited data

Results flagged for a closer look

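Rpl41 and Mrpl41 moved in opposite directions in the genotypes, with every treated B6 library above control set 1 and every treated mutant library below the untreated mutants. For Rpl41 the difference between the responses was -0.44 ± 0.11 on the log2 scale (adjusted p = 0.102, edgeR's quasi-likelihood test). For Mrpl41, of the mitochondrial large subunit, it was -0.33, with 14.4, 15.5 and 16.0 CPM in control set 1, 16.9, 17.2 and 16.4 CPM in B6 D26 mice, 16.5, 15.9 and 18.0 CPM in untreated mutants and 14.99, 13.3 and 15.7 CPM in treated ones. Neither difference passed an adjusted p under 0.05 in edgeR, and both were found by screening 154 genes. Among all genes, 16.3% had every B6 D26 library above control set 1. Every treated mutant library was below the untreated mutants for 13% of all genes. The share of all genes that met both conditions was not counted, so whether the ribosomal protein genes exceed it was not tested. Levels in the other B6 control set are not given here for either gene.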

How the results depend on the processing

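With the DESeq2 test, called members numbered 1 cytosolic and 1 mitochondrial in the B6 response, 3 and 2 in the Irf1-/- response, 1 cytosolic between control sets and 3 cytosolic for the difference of responses, where DESeq2 called 14.3, 6.36, 4.69 and 3.22% of all genes. With library totals alone, 1 mitochondrial gene was called in the B6 and 2 in the Irf1-/- response (9.07 and 2.47% of all genes). In the joint fit of 15 libraries, 2 mitochondrial genes were called in the B6 response and 3 (Mrpl14, Mrpl2 and Mrpl28) between treated genotypes, against 19.0 and 14.0% of all genes. With control set 2, the B6 response had 1 cytosolic (Rpl29) and 3 mitochondrial calls (Mrpl1, Mrpl27 and Mrpl35), against 14.8% of all genes, and the difference for Mrpl27 was 0.012.
The GC correction gave 2 mitochondrial calls in the Irf1-/- response with or without the replicate block, against 2.88 and 2.47% of all genes. It turned Rpl22l1 to 0.044 in the B6 response (0.043 with the block) and to -0.0059 between treated genotypes (-0.010 with the block). The length correction gave 1 mitochondrial call in the B6 and 0 in the Irf1-/- response, against 8.42 and 2.09% of all genes. With it the medians were -0.073 (cytosolic) and -0.0079 (mitochondrial) between treated genotypes, and 0.041 and -0.043 for the difference. The cause of these changes was not tested.
Leaving out each mouse gave 0 to 1 cytosolic calls in the B6 response (1, Rpl22l1, without B6 D26 replicate 2). Those fits called 0.127 to 12.1% of all genes, and 8.77% without that replicate. The Irf1-/- response had 0 to 1 mitochondrial calls (0 without any one of the untreated mutants or treated mutant 3), against 0.11 to 3.06% of all genes. For the difference there were 0 to 2 cytosolic calls (2 without B6 D26 replicate 2). The mitochondrial median ran from -0.12 to -0.042 between treated genotypes and from -0.0092 to 0.070 between control sets.
Deviations of same-numbered mice had correlations of -0.25 to 0.25, which with 3 mice per group cannot decide whether the numbers mark a pairing. The replicate block alone left the called count of each class in all comparisons as it was. With it 0.482% of all genes were called in the B6 response and 2.85% in the Irf1-/- response. Over all alternatives 1265 values kept their direction and side of the threshold, or moved by less than the spread between mice. They include the counts at the double threshold, which no member passed in any alternative, so this total does not measure how steady the results are. A further 28 moved by more or were changed counts of called members, 9 of them for mitochondrial genes in the Irf1-/- response. Another 24 passed the threshold only in the alternative and 5 only outside it. The 5 that turned sign were single genes: Rpl22l1 (2 in the B6 response, 2 between treated genotypes) and Mrpl27 (1, difference). Class medians that changed sign were not among them. The cytosolic median went from 0.026 to as low as -0.061 between untreated genotypes. It reached 0.035 from -0.039 in the Irf1-/- response and 0.041 from -0.081 for the difference. Labels do not say whether mice shared a cage, litter or sequencing run, and 3 mice per group limit the calls.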
